A study of Mus musculus with 26 samples.

Results

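The Id and Twist inhibitors of the myogenic factors are 7 genes, Id1, Id2, Id3, Id4, Msc, Twist1 and Twist2, among the 55341 genes counted in 26 RNA-Seq libraries of C2C12 mouse myoblasts. They were taken from a list of helix-loop-helix inhibitors of MyoD by matching Ensembl identifiers to GENCODE symbols, and all 7 were found. C2C12 is an established mouse muscle cell line that fuses into myotubes when serum is withdrawn. In 18 libraries, cells were transfected with a control siRNA (siCtrl) or with an siRNA against SMYD3, a lysine methyltransferase (siSMYD3#1 or siSMYD3#2), and were collected in growth medium (0 h) or after 24 h in differentiation medium, with 3 libraries in each of the 6 groups. RNA of 1 library in each of these groups was extracted with TRIzol and that of the other 2 with NucleoSpin columns. The other 8 libraries, all TRIzol extractions, compared SMYD3 CL5, a single clone carrying retroviral HA-Flag SMYD3, with sub-cloned cells carrying the empty pREV vector, at the same time points, with 2 libraries per group. The study's methods call the libraries of a group biological replicates, and neither they nor the labels name the cultures they came from, so the p-values measure the spread between these libraries.

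Id proteins have a helix-loop-helix domain for pairing but lack the basic region that binds DNA. They pair with the E proteins (Tcf3, Tcf4 and Tcf12), the partners that MyoD and myogenin need to bind E-boxes in muscle genes, and so keep myoblasts from differentiating. Id genes are classic targets of BMP signalling through SMAD proteins and are expressed in growing myoblasts. Msc (musculin, also MyoR), Twist1 and Twist2 have a basic region, and repress muscle genes by taking up E proteins or by occupying E-boxes themselves.

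Total counts were 14315193 to 60398170 in the siRNA libraries and 21124675 to 67853386 in the overexpression libraries. Levels below are CPM, counts relative to the library size after TMM scaling, scaled within each experiment, so levels of the siRNA and the overexpression libraries are not on 1 scale. The labelled cell type was checked by its 5 markers (Myod1, Myf5, Des, Cdh15 and Vcam1), which all reached 1 CPM and summed to 255 to 1950 CPM in the siRNA libraries and 606 to 1680 CPM in the overexpression libraries. Summed markers of other cell types were lower, at 47.3 to 92.8 CPM for 5 osteoblast genes, 9.33 to 29.9 CPM for 5 adipocyte genes, 2 to 6.75 CPM for 4 macrophage and blood genes and 0.0676 to 2.59 CPM for 3 endothelial genes in the siRNA libraries. Ibsp, of the osteoblast genes, and Adgre1, of the macrophage genes, had 0 counts in all 26 libraries. These are bulk libraries, in which fewer expressing cells and less RNA per cell cannot be told apart. Smyd3, the targeted gene, stood at 17.8 to 21.6 CPM in the 6 siCtrl libraries, at 15.1 to 19.3 CPM in the 6 libraries labelled siSMYD3#1 and at 5.37 to 9.65 CPM in the 6 siSMYD3#2 libraries. It was at 16.7 to 19.2 CPM in vector libraries and at 16.9 to 27.1 CPM in those labelled SMYD3 CL5. Smyd3 fell by 1.41 ± 0.16 (SE) on the log2 scale at 0 h and by 1.51 ± 0.17 at 24 h with siSMYD3#2 (edgeR adjusted p = 0.000107 and 5.06e-05). In the libraries labelled siSMYD3#1 its log2 difference from siCtrl was -0.16 ± 0.16 at 0 h and -0.24 ± 0.16 at 24 h (edgeR adjusted p = 0.785 and 0.414). Libraries labelled SMYD3 CL5 differed from vector in Smyd3 counts by 0.29 ± 0.27 and 0.36 ± 0.27 (adjusted p = 0.593 and 0.671). The labels of siSMYD3#1 and SMYD3 CL5 were therefore not borne out by the Smyd3 transcript at the threshold used, and these groups are named by their labels throughout.

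Of the 7 genes, 5 passed the filter on low counts in both fits (Id1, Id2, Id3, Msc and Twist2). Twist1, which specifies mesoderm and restrains myogenesis, had 0 counts in 24 of 26 libraries and 1 count in the other 2. Id4 had 0 to 8 counts per library and 0 in 4 libraries, for a sum of 69 over all 26. Neither was tested, and no fold is given for them. On GRCm38, Id1 lies at chr2:152736251-152737410, Id2 at chr12:25093799-25097140, Id3 at chr4:136143497-136145755, Msc at chr1:14753346-14755992 and Twist2 at chr1:91801461-91848028. Id1, Id2 and Id3 share no exonic bases with another gene. Msc shares 539 exonic bases with Gm9947 on the opposite strand, Twist2 shares 1477 with Gm29100 and Id4 shares 253 with 2 opposite-strand genes. Whether the counting used strand is not given in the sources used here, so reads of Msc and Gm9947, or of Twist2 and Gm29100, may not be told apart.

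The sequences before the Id2 and Id3 starts are shown because these 2 genes had the largest fitted falls with each siRNA and the most alike patterns in the siRNA libraries. They are the 250 bases before each RefSeq start (GRCm38.p6), Id2 at chr12:25096093-25096342 on the minus strand and Id3 at chr4:136143572-136143821 on the plus strand. Capitals mark the E-box CANNTG, the BMP response element GGCGCC and the SMAD element CAGAC, read on both strands.
Id2: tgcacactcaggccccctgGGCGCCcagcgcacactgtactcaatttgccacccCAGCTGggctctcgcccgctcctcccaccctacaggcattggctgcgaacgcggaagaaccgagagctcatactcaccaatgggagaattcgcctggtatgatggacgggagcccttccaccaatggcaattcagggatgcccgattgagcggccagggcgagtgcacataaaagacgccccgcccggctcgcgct
Id3: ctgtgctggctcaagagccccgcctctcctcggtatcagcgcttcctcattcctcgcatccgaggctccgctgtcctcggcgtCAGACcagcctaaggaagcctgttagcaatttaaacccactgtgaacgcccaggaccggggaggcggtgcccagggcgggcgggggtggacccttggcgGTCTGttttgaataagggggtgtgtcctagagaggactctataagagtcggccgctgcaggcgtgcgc
The Id2 window held 1 E-box and 1 GGCGCC, and the Id3 window held 2 CAGAC elements and none of the others. Among 32851 such windows, 66.2% held CANNTG, 9.59% held GGCGCC and 42.2% held CAGAC. The elements CCCTCC and GAGGGG, described as binding elements of SMYD3, were in neither window and were held by 35.2% and 29.6% of all windows. Windows were also at hand for Id4, Twist1 and Twist2, with 0 E-boxes in each. The Twist1 window held 3 CCCTCC, 2 GAGGGG and 1 CAGAC, the Id4 window 1 CCCTCC and 1 GGCGCC, and the Twist2 window none of the 5 elements.

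Id1, Id2 and Id3 stood far above the other members in growing cells. Per kilobase of exon, the siCtrl 0 h NucleoSpin libraries held 61.5 and 65.1 CPM of Id3, 41.3 and 33.8 of Id1 and 15.5 and 12.9 of Id2. Msc had 5.99 and 5.54 and Twist2 3.57 and 3.91 CPM per kilobase in the same libraries. No neighbours in that order overlapped within NucleoSpin. In the TRIzol library of that group, Id1 (106) and Id3 (97.6) changed places, Id2 stood at 28.5, Twist2 at 6.92, and Msc was last at 0.0289. The summed level of Id1 to Id4 was 112 to 118 CPM per kilobase in the NucleoSpin libraries and 232 in the TRIzol library, and Id4 made up at most 0.0161% of any of these sums. Lengths were all annotated exon bases of a gene, for Twist2 3174 bases against 1329 and 2525 in its protein-coding transcripts. Levels per kilobase were not computed with transcript lengths, so the order of the members depends on this choice of length.

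After 24 h in differentiation medium, siCtrl cells had less of the Id genes and Twist2 and more Msc than at 0 h. The study's methods state that cells were transfected again when differentiation was induced. Time and this transfection may therefore not be told apart in the siRNA libraries. All 5 tested members passed the threshold between 24 h and 0 h (edgeR quasi-likelihood test, adjusted p below 0.01 over 15820 genes), against 29.4% of all genes tested. Their median log2 difference was -1.58, and that of all genes was 0.027.

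Id3 was at 110.2, 117 (NucleoSpin) and 175 CPM (TRIzol) at 0 h and at 8.06, 9.14 and 72.7 CPM at 24 h in siCtrl. Every 24 h library was below every 0 h library, and the TRIzol library stayed far above the others at 24 h. It fell by 2.69 ± 0.46 (SE) on the log2 scale (adjusted p = 0.000519). Without the siCtrl 24 h TRIzol library the log2 difference was -3.58, and NucleoSpin libraries alone gave -3.75. With siSMYD3#1 the levels were 93.9, 112 and 203 CPM at 0 h and 13.1, 10.7 and 48.1 CPM at 24 h. With siSMYD3#2 they were 96.5, 114 and 159 CPM and then 4.85, 6.17 and 23.7 CPM. Time points again did not overlap with either siRNA.

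Id2 levels in siCtrl were 37.7, 31.5 and 69.5 CPM at 0 h and 3.55, 4.7 and 11.9 CPM at 24 h. This was the fall with the smallest error relative to its size, 2.86 ± 0.17 on the log2 scale (adjusted p = 5.74e-10), or 7.26-fold. Libraries labelled siSMYD3#1 held 23.7, 27.4 and 49.99 CPM and then 3.37, 3.47 and 9.9 CPM. Those of siSMYD3#2 held 29.7, 25.4 and 48.9 CPM and then 2.61, 2.25 and 6.59 CPM, the lowest Id2 levels of the siRNA libraries within each extraction method.

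Id1 went from 47.9, 39.3 and 123 CPM to 18.1, 14.2 and 34.2 CPM in siCtrl, a fall of 1.58 ± 0.26 on the log2 scale (adjusted p = 0.000193). The corresponding values were 30.8, 40.2 and 111 CPM and then 19.5, 13.7 and 20.2 CPM with siSMYD3#1. For siSMYD3#2 they were 37, 43.9 and 99.3 CPM and then 13.7, 12.9 and 19.1 CPM. No 24 h library reached a 0 h library of its own group. Id1 kept the largest share of its growth-medium level among the 3 Id genes in the NucleoSpin libraries, and at 24 h it was the leading Id gene there.

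Twist2, a repressor of the Twist family, was at 11.3, 12.4 and 22 CPM at 0 h and at 6.05, 7.18 and 6.37 CPM at 24 h in siCtrl, a fall of 1.19 ± 0.22 (adjusted p = 0.000297). With the SMYD3 siRNAs it went from 10.4, 12.7 and 17.7 CPM to 8.7, 7.43 and 8.18 CPM with siSMYD3#1 and from 11.2, 10.5 and 19.6 CPM to 8.31, 8.48 and 6.63 CPM with siSMYD3#2. These differences, -0.72 ± 0.22 and -0.77 ± 0.22, did not pass the threshold (adjusted p = 0.0144 and 0.0126), although the time points did not overlap. They passed in 4 and 7 of the 18 fits that left out a library, and with DESeq2 in both. Gm29100, on the opposite strand, had 0.42 to 2.54 CPM over the siRNA libraries. Its part in the Twist2 counts was not tested.

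Msc was the only member that rose. In siCtrl the NucleoSpin libraries went from 15.3 and 14.1 CPM to 23.6 and 25.8 CPM, while the TRIzol library held 2 counts at 0 h and 34 counts at 24 h. The fitted rise was 0.98 ± 0.26 on the log2 scale (adjusted p = 0.00583). The call was lost when 1 of 7 libraries was left out, 5 of them siCtrl libraries (log2 rise 0.82 to 1.13, adjusted p 0.0101 to 0.0219). NucleoSpin libraries alone gave 0.73 (adjusted p = 0.00102). With siSMYD3#1 the NucleoSpin levels were 6.65 and 5.1 CPM at 0 h and 8.23 and 5.24 CPM at 24 h, and with siSMYD3#2 they were 13.7 and 15.3 CPM and then 18.9 and 18.1 CPM. Neither of these differences passed the test (0.36 ± 0.3 and 0.39 ± 0.27, adjusted p = 0.37 and 0.289).

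**Figure D1:**
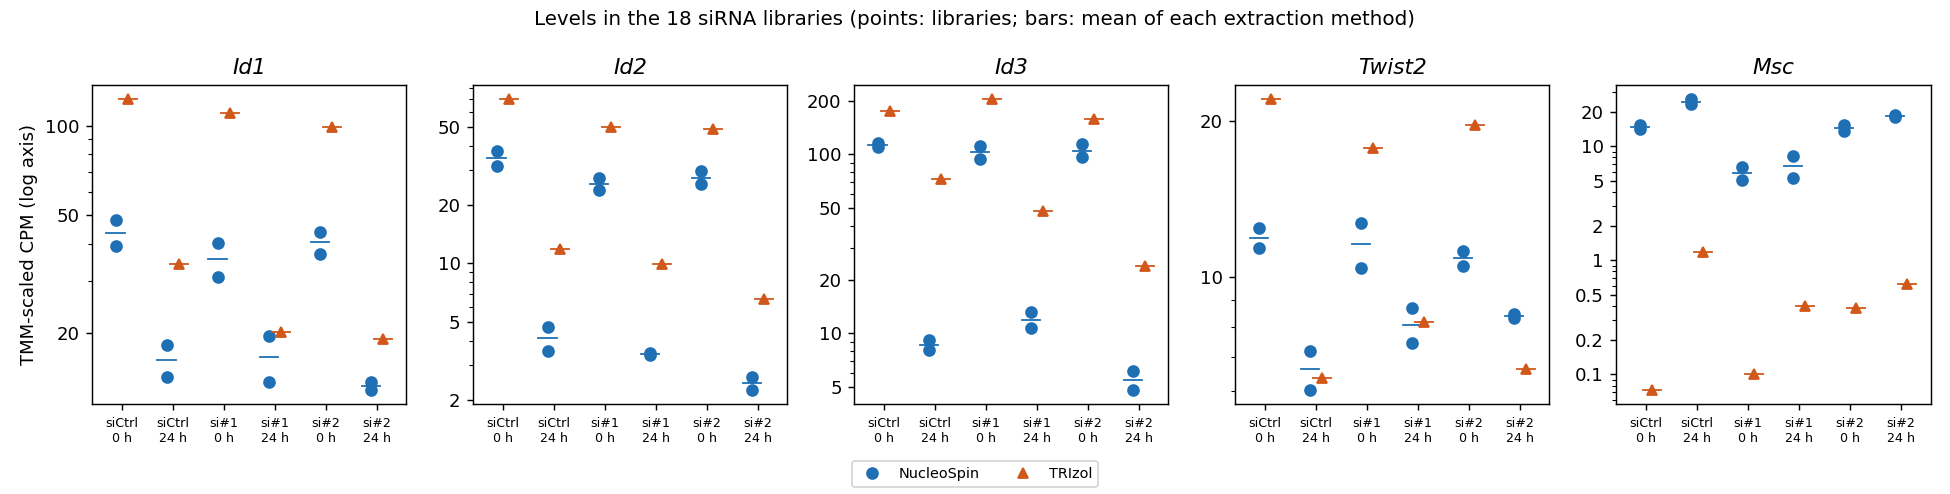
TMM-scaled CPM (log axis) of the 5 tested members in the 18 siRNA libraries, by group. Points are libraries, circles for NucleoSpin and triangles for TRIzol, and bars are the mean of each extraction method. Id1, Id2 and Id3 are lower at 24 h in every group, and Msc in the TRIzol libraries lies far below the NucleoSpin libraries.

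With either SMYD3 siRNA, 3 of the 5 tested members passed the threshold between the time points, namely Id1, Id2 and Id3, all lower at 24 h. DESeq2 called 4 of 5 with each, Twist2 being the other, among 4599 genes with siSMYD3#1 and 3676 with siSMYD3#2. The share of all genes called by edgeR was 25.4% with siSMYD3#1 and 19% with siSMYD3#2. Under siSMYD3#1 the falls were 1.55 ± 0.26 for Id1, 2.67 ± 0.17 for Id2 and 2.74 ± 0.46 for Id3 on the log2 scale. Under siSMYD3#2 they were 1.87 ± 0.27, 3.27 ± 0.18 and 3.73 ± 0.49. The difference of these time effects from that of siCtrl was tested directly, and 0 of 5 members passed for either siRNA (edgeR). In each, 0 had an unadjusted p below 0.05 and 0 were called by DESeq2. Of all genes, edgeR called 0.215% and 0.019%, and DESeq2 called 141 and 111 genes. An unadjusted p below 0.05 in edgeR was found for 1388 and 1585 of the 15820 genes. For Id3 with siSMYD3#2 that difference was -1.04, with an interval of 1.96 SE from -2.28 to 0.21. All 3 comparisons between time points used separate libraries.

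In the vector and SMYD3 CL5 libraries, the 3 Id genes were again lower at 24 h without overlap. Vector libraries held 139 and 83.4 CPM of Id1 at 0 h and 21.6 and 18.1 CPM at 24 h. Their Id2 went from 70.1 and 44.7 CPM to 11.1 and 8.1 CPM, and their Id3 from 219 and 145 CPM to 49.9 and 34.1 CPM. In SMYD3 CL5, Id1 was at 107 and 139 CPM and then at 23.5 and 19.1 CPM. Its Id2 levels were 45.5 and 39.3 CPM and then 11.3 and 17.9 CPM, and its Id3 levels were 239 and 229 CPM and then 61.5 and 36.9 CPM. Lower in every 24 h library were 4 of the 5 tested members in each line (Id1, Id2, Id3 and Twist2), where 30.8% of all genes did the same in vector and 11.3% in SMYD3 CL5.

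None of these differences passed the adjusted test, and neither did any other gene. With 17835 genes tested, 0% were called in vector and 0% in SMYD3 CL5 (edgeR, 1256 and 1137 genes with an unadjusted p below 0.05, and 119 and 109 called by DESeq2). Log2 differences in vector were -2.48 ± 0.32 for Id1, -2.58 ± 0.35 for Id2 and -2.12 ± 0.35 for Id3 (edgeR adjusted p = 0.139, 0.139 and 0.269). In SMYD3 CL5 they were -2.53 ± 0.32, -1.54 ± 0.33 and -2.25 ± 0.35 (edgeR adjusted p = 0.161, 0.379 and 0.264). Twist2 differed by -0.21 ± 0.34 in vector and by -1.23 ± 0.35 in SMYD3 CL5 (edgeR adjusted p = 0.972 and 0.559). Unadjusted p was below 0.05 for 4 of the 5 members in each line, and DESeq2 called 3 of 5 in each, the 3 Id genes. The difference of the time effects between the lines was called for 0% of genes (312 with an unadjusted p below 0.05, 2 by DESeq2) and 0 members (0 with an unadjusted p below 0.05, 0 by DESeq2). For Id2 it was 1.04 ± 0.46 and for Twist2 -1.03 ± 0.49 (edgeR, unadjusted p = 0.0569 and 0.0719, adjusted p = 1 for both).

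**Figure D2:**
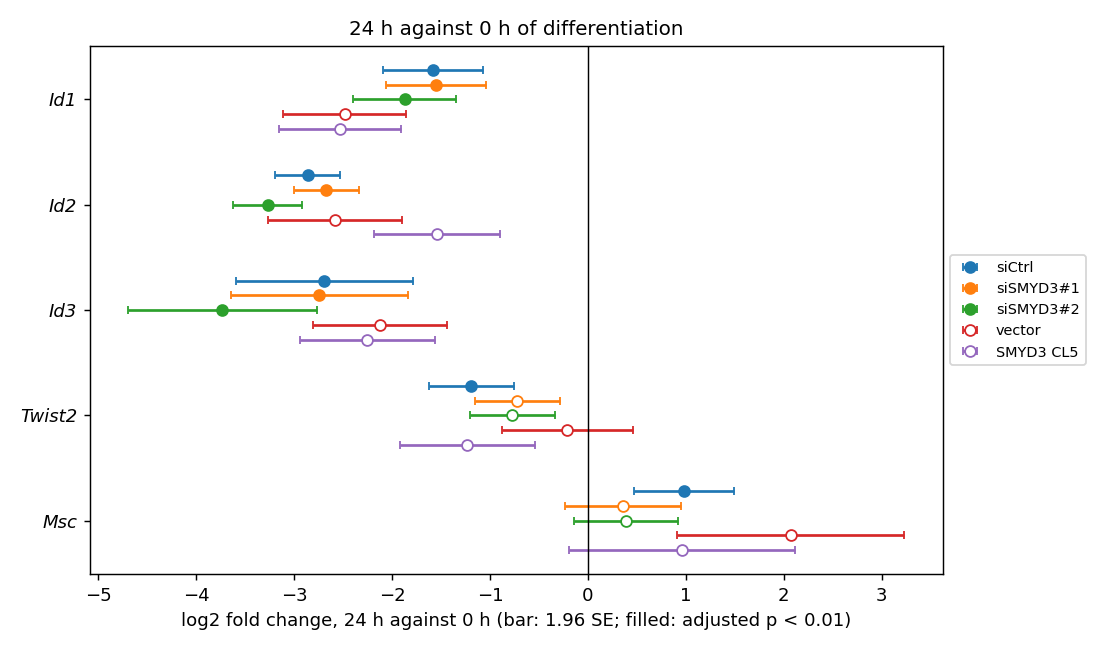
Log2 fold change between 24 h and 0 h (x axis) of the 5 tested members (y axis) in the 5 cell groups, with bars of 1.96 SE and filled points where the adjusted p was below 0.01. Id1, Id2 and Id3 lie left of 0 in all 5 groups, and the points of the 2-library groups are all open.

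The libraries labelled siSMYD3#1 held less Msc than siCtrl. At 24 h the NucleoSpin levels were 8.23 and 5.24 CPM against 23.6 and 25.8 CPM, and the TRIzol library had 13 counts against 34. The fitted fall was 1.86 ± 0.28 on the log2 scale, or 3.62-fold (adjusted p = 0.00029), and NucleoSpin libraries alone gave -1.82. Msc was the 1 of 5 tested members called, where 5.85% of all genes were called. The call was kept in all 18 fits that left out a library, with log2 differences of -2.05 to -1.58. At 0 h 0 of 5 members passed (edgeR, 2 with an unadjusted p below 0.05, 1 by DESeq2), against 1.43% of all genes by edgeR and 523 genes by DESeq2. Of the 15820 genes tested at 0 h, 2196 had an unadjusted p below 0.05. Msc there was at 6.65 and 5.1 CPM against 15.3 and 14.1 CPM in NucleoSpin, a log2 difference of -1.23 ± 0.28 that missed the threshold (adjusted p = 0.0191) and passed it within NucleoSpin libraries (-1.3, adjusted p = 0.000209). The TRIzol libraries of that comparison held 3 and 2 Msc counts.

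With siSMYD3#2, the siRNA that lowered the Smyd3 transcript, 0 of 5 members passed at 0 h (edgeR, 1 with an unadjusted p below 0.05, 0 by DESeq2) and 0 of 5 at 24 h (2 with an unadjusted p below 0.05, 1 by DESeq2). All genes were called at 0.531% and 3.7% by edgeR, and DESeq2 called 205 and 1045 genes. Of the 15820 genes tested, 1596 and 3530 had an unadjusted p below 0.05 in edgeR. The Msc log2 difference of siSMYD3#2 from siCtrl at 24 h was -0.51 ± 0.27 (adjusted p = 0.272). Both siRNA comparisons share the siCtrl libraries. Compared directly at 24 h, siSMYD3#1 was lower in Msc than siSMYD3#2 by a log2 difference of -1.34 ± 0.29 (adjusted p = 0.00722), the 1 member called, where 3.36% of genes were called. That call was lost with the study's replicate numbers as a block (0 members called) and in 12 of the 18 fits that left out a library (log2 difference -1.55 to -1.06, adjusted p 0.011 to 0.0627). NucleoSpin libraries alone gave -1.41 (adjusted p = 4.03e-05). They also called Id3, higher with siSMYD3#1 by 1.13 on the log2 scale (edgeR adjusted p = 0.000212), among 1486 genes called. In the full fit the Id3 difference was 1.05 ± 0.48 and was not called (edgeR adjusted p = 0.225). The extraction by time term, added after the data were seen, gave 1.11 ± 0.21 for Id3 (edgeR adjusted p = 0.0024). Gm9947, on the strand opposite Msc, was at 0.87 and 0.425 CPM with siSMYD3#1, 2.3 and 1.85 CPM with siSMYD3#2 and 1.75 and 1.63 CPM with siCtrl in the same NucleoSpin libraries. Like Msc, it was lower with siSMYD3#1, but with siSMYD3#2 it was not below siCtrl. Its part in the Msc counts was not tested.

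The siRNA antisense strands are given because the 2 siRNAs differed in Msc, with bases 2 to 8 in capitals.
siSMYD3#1: gUUGGGGUcacagcuguga
siSMYD3#2: uCAAAUCUucaaucaggcu
The letters pairing with bases 2 to 8 of siSMYD3#1 were in neither of the 2 protein-coding Msc transcripts of GENCODE M21. Those pairing with bases 2 to 7 (CCCCAA) occurred 1 time in each, and were present in 48.2% of all protein-coding transcripts. They also occurred 1 time in 1 Twist2 transcript, and Twist2 differed by 0.32 ± 0.23 with siSMYD3#1 at 24 h (edgeR adjusted p = 0.435). The site for bases 2 to 7 of siSMYD3#2 (GAUUUG) occurred 1 time in 1 Id2 transcript, 2 times in an Id4 transcript and in neither Msc transcript searched. It was in 35.3% of all protein-coding transcripts. These searches covered protein-coding transcripts only, out of 4 Msc transcripts of any type, and were chosen after the Msc values were seen.

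Id2 and Id3 at 24 h were the members nearest to a difference with siSMYD3#2. Id2 levels of 2.61, 2.25 and 6.59 CPM stood against 3.55, 4.7 and 11.9 CPM in siCtrl, each below its siCtrl counterpart of the same extraction method. The log2 difference of -0.79 ± 0.19 missed the threshold (adjusted p = 0.0121), as did that of Id3, -1.15 ± 0.48 (adjusted p = 0.174). The Id3 difference was -0.17 without the siCtrl 24 h TRIzol library. With siSMYD3#1 the same differences were -0.26 ± 0.18 for Id2 and -0.11 ± 0.45 for Id3. With a term that let the 24 h effect differ between extraction methods, added after the data were seen, Id2 and Id3 were both lower with siSMYD3#2 at 24 h (-0.8 ± 0.14 and -1.12 ± 0.21, edgeR adjusted p = 0.000568 and 0.00206). Within NucleoSpin libraries alone neither passed (-0.74 and -0.63, adjusted p = 0.0286 and 0.0224). Id3 with siSMYD3#1 differed from siCtrl by 0.5 in those libraries, short of the threshold (edgeR adjusted p = 0.0317). The TRIzol libraries of that comparison, 1 per group, differed by -0.6 on the log2 scale.

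Twist2 stood lower in SMYD3 CL5 than in vector cells. It was at 6.08 and 12.5 CPM against 14.8 and 17.9 CPM at 0 h, and at 4.05 and 3.82 CPM against 14.2 and 14.1 CPM at 24 h. Its levels in the 2 lines did not overlap at either time, and the 24 h levels of a line lay close together. Also without overlap were Id3 at 0 h and Id2 at 24 h, higher in SMYD3 CL5, and Msc at 24 h, lower. The share of all genes without overlap between the lines was not computed, so no result about the members is drawn from it. Gm29100, opposite Twist2, was also lower in SMYD3 CL5, at 0.46 to 1.11 CPM against 2.04 to 3.2 CPM in vector, and its part in the Twist2 counts was not tested. The log2 differences were -0.81 ± 0.35 at 0 h and -1.84 ± 0.36 at 24 h (adjusted p = 0.271 and 0.0396), so neither passed 0.01. The 24 h difference passed when either SMYD3 CL5 0 h library was left out (-1.8 and -1.83, edgeR adjusted p = 0.00107 and 0.00105). Msc at 24 h was at 1.3 and 2.9 CPM against 6.61 and 5.12 CPM, a log2 difference of -1.51 ± 0.58 (adjusted p = 0.289), while Gm9947 was at 0.319 and 0.276 CPM against 0.931 and 0.828 CPM. Called members were 0 of 5 at both times (edgeR, 1 and 2 with an unadjusted p below 0.05, 0 and 1 by DESeq2). Of all genes, edgeR called 1.07% and 0.964%, and DESeq2 called 1041 and 880 genes. An unadjusted p below 0.05 in edgeR was found for 3258 and 2488 of the 17835 genes. Id1, Id2 and Id3 differed from vector by -0.44 to 0.61 on the log2 scale over both times, and none of the 6 intervals of 1.96 SE excluded 0. SMYD3 CL5 is 1 clone, so the clone and SMYD3 cannot be told apart.

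**Figure D3:**
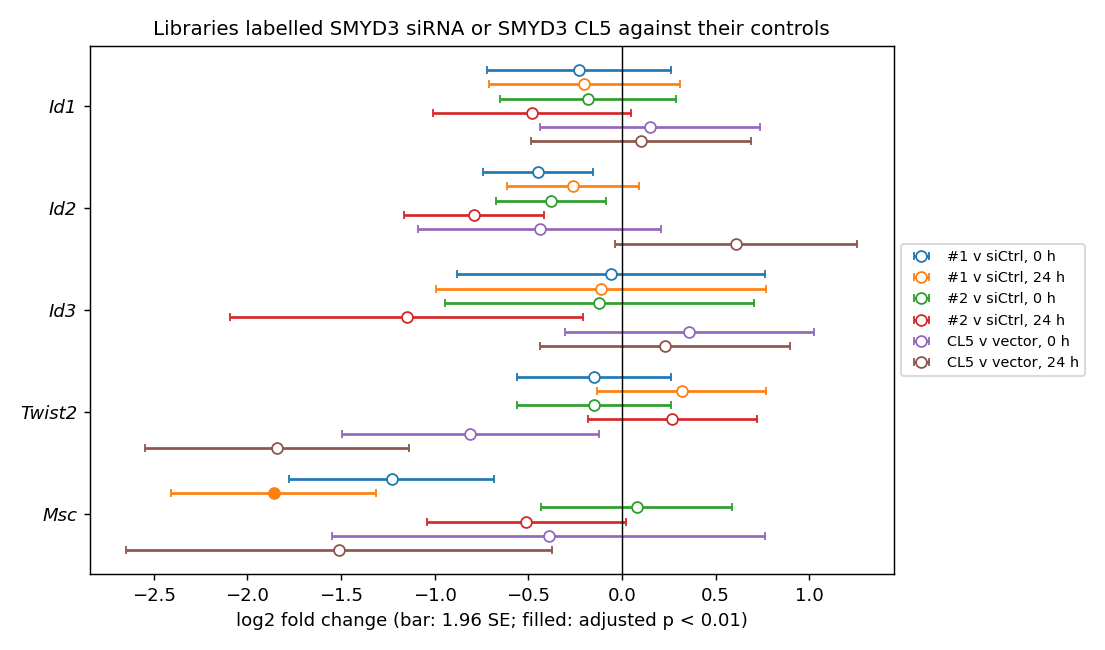
Log2 fold change (x axis) of the 5 tested members (y axis) in libraries labelled SMYD3 siRNA or SMYD3 CL5 against siCtrl or vector at 0 h and 24 h, with bars of 1.96 SE and filled points where the adjusted p was below 0.01. Msc with siSMYD3#1 at 24 h is the filled point, at -1.86, and Twist2 in SMYD3 CL5 at 24 h lies at -1.84.

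**Figure D4:**
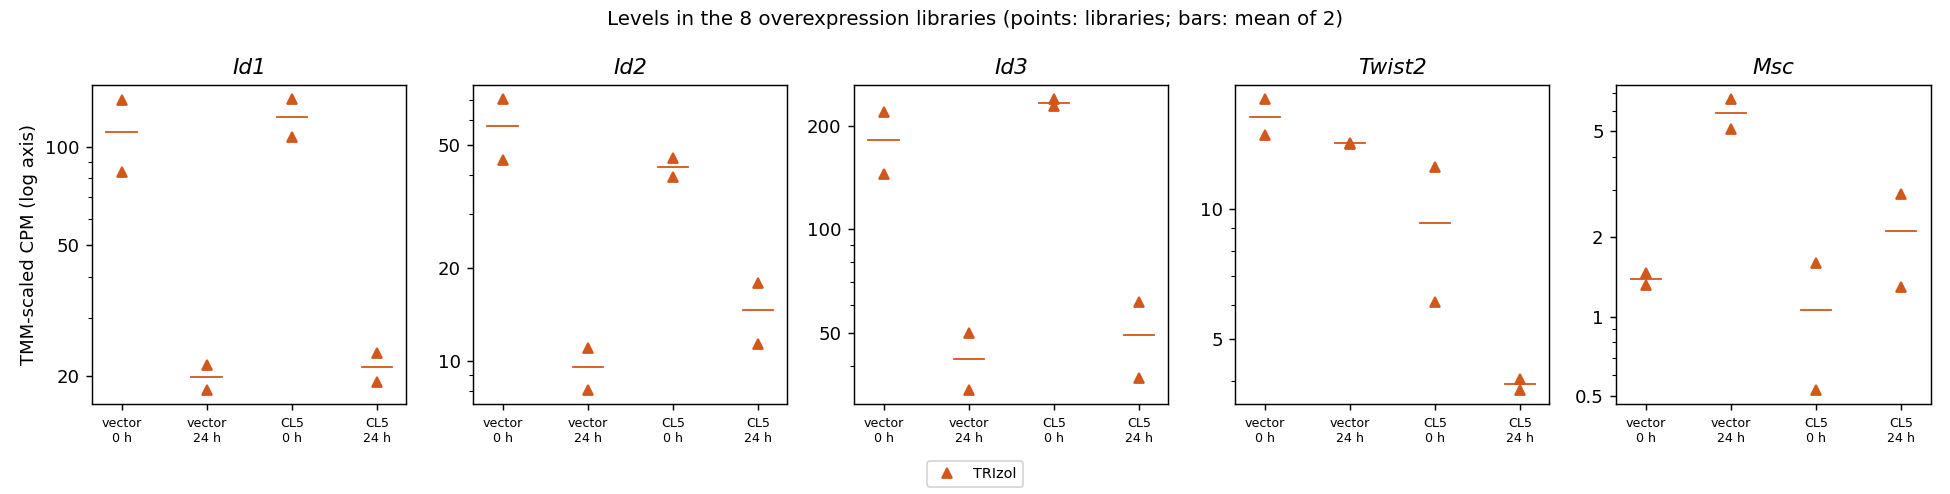
TMM-scaled CPM (log axis) of the 5 tested members in the 8 overexpression libraries, with a bar at the mean of 2. Twist2 in SMYD3 CL5 at 24 h (4.05 and 3.82 CPM) lies below all vector libraries, and Id1, Id2 and Id3 are lower at 24 h than at 0 h in both lines.

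The members also differed between the extraction methods, Msc by far more than between the time points. TRIzol libraries held more of all 3 Id genes, by 1.1 ± 0.15 for Id1, 1.18 ± 0.09 for Id2 and 1.56 ± 0.27 for Id3 on the log2 scale, and less Msc, which differed by -4.94 ± 0.23, or 30.6-fold (edgeR adjusted p = 1.77e-05, 6.63e-09, 0.000264 and 8.26e-12). These were 4 of 5 members, against 51.3% of all genes called, and Twist2 missed the threshold (0.38 ± 0.13, adjusted p = 0.0167). Msc had 2 to 34 counts in the 6 TRIzol libraries of the siRNA experiment, 74 to 823 in the 12 NucleoSpin libraries and 21 to 334 in the 8 overexpression libraries, which were TRIzol extractions too. Its fold changes in the siRNA fit therefore rest mostly, but not wholly, on the NucleoSpin libraries. The log2 rise of Msc over time in siCtrl was 0.98 in the full fit and 0.73 in NucleoSpin libraries alone. In the study's library list the extraction method coincides with the cell passage, so the 2 cannot be told apart. Myod1 and Myog also differed between the methods (-1.82 ± 0.2 and -1.6 ± 0.23, adjusted p = 1.36e-06 and 3.55e-05), and their part in the Msc difference was not tested.

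The size of the 24 h effect also differed between the extraction methods, in a comparison added after the data were seen. Over the 3 siRNA treatments the log2 effect on Id3 was -3.69 ± 0.14 in NucleoSpin and -2 ± 0.17 in TRIzol libraries, a difference of 1.69 ± 0.22 (edgeR adjusted p = 7.64e-05). Twist2 went the other way, with effects of -0.57 ± 0.09 and -1.48 ± 0.12 and a difference of -0.91 ± 0.15 (adjusted p = 0.000206). Those on Id1 were -1.36 ± 0.12 and -2.21 ± 0.16 (difference -0.85 ± 0.2, adjusted p = 0.00663), and those on Id2 -3.17 ± 0.09 and -2.59 ± 0.11 (difference 0.58 ± 0.14, adjusted p = 0.00583). The Msc difference was 1.56 ± 0.45 (adjusted p = 0.0192) on the few counts given above. Called were 4 of the 5 members, against 10.3% of all genes. The Id3 and Twist2 calls held in all 18 fits that left out a library. The Id2 call held in 14 of them and the Id1 call in 4 (differences of 0.55 to 0.66 and of -1.05 to -0.63), with adjusted p up to 0.0206 and 0.0449.

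**Figure D5:**
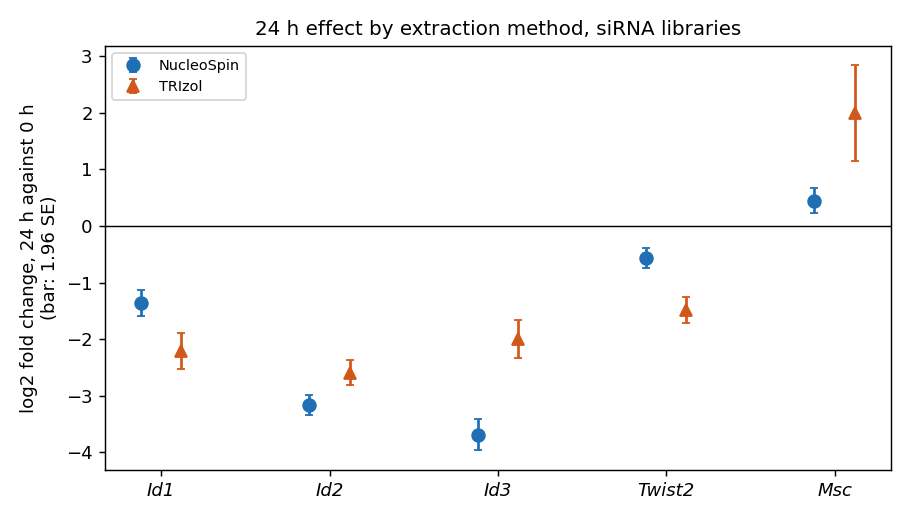
Log2 fold change between 24 h and 0 h (y axis, bars of 1.96 SE) over the 3 siRNA treatments, in NucleoSpin (circles) and TRIzol libraries (triangles), for the 5 tested members. The bars of the methods are apart for all 5 members, as for Id3, at -3.69 and -2, and Twist2, at -0.57 and -1.48.

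The makeup of the Id pool was as follows, with no test. In siCtrl NucleoSpin libraries Id1 made up 30.2% and 34.9% of the summed Id level per kilobase at 0 h and 63.4% and 72.4% at 24 h. Id3 made up 52% and 58.2% at 0 h and 20.8% and 26.5% at 24 h. In the TRIzol library Id3 made up 42.1% at 0 h and 54.1% at 24 h, and Id1 45.6% and 39.3%. TRIzol libraries were not alike in this, since Id3 went from 49.4% to 55.6% with siSMYD3#1 and from 45.6% to 40.8% with siSMYD3#2, where Id1 went from 44.1% to 50.8%. The vector libraries, also TRIzol, had 45.2% to 47.2% Id3 at 0 h and 50.1% to 54.6% at 24 h. The summed level at 24 h was 19.3 to 21.6 CPM per kilobase in siCtrl NucleoSpin libraries, 75 in the TRIzol library and 15.5 to 15.6 in siSMYD3#2 NucleoSpin libraries.

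The members' patterns over the 18 siRNA libraries, centred within each extraction method, were compared as a description. Id2 and Id3 were the most alike pair (Pearson r = 0.97), followed by Id1 and Id2 (0.93), and Msc ran against all others (r = -0.501 to -0.357). The 18 points share the difference between time points. Among 10816 genes with a mean count of at least 100, the genes most like Id2 were Dusp5, a phosphatase of ERK (0.978), Id3 and Ecd (0.97). Those most like Id3 were Dusp5 (0.97), Id2 and Med26 (0.961). Id1 was closest to Kcnn4 (0.949), Igsf11 (0.948) and Fam69b (0.945), and Twist2 to Cpne2 (0.977), Mtrr (0.968) and Pparg (0.963). Msc had looser matches in Stim2 (0.918) and Cep41 (0.905).

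Among 10 E proteins and myogenic partners of the inhibitors, all tested, 5 rose and 0 fell in siCtrl (median log2 difference 0.538), where 2309 of all 15820 genes rose and 2346 fell (median 0.027). Myog, the myogenin gene, rose by 7.25 ± 0.38 and Mef2a by 1.57 ± 0.18. Among the E proteins, Tcf4 rose by 1.02 ± 0.14 and Tcf12 by 0.64 ± 0.14, while Tcf3 differed by -0.1 ± 0.13 (adjusted p = 0.547). Myod1 differed by -0.25 ± 0.29 and Myf5 by 0.31 ± 0.11, both short of the threshold. With siSMYD3#1 and siSMYD3#2 at 24 h, 2 of the 10 were lower than in siCtrl in each case, Myog (-3.59 ± 0.3 and -1.81 ± 0.28) and Mef2a (-0.98 ± 0.17 and -0.81 ± 0.17). The E proteins differed by -0.29 to 0.32 with either siRNA, and none was called. In SMYD3 CL5 at 0 h, Myog was 6.86 ± 0.89 above vector on the log2 scale (15.9 and 81.9 CPM against 0.283 and 0.535), while no Id gene was called in that comparison. Myog in CL5 was named after its values were seen.

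Of 17 other inhibitors of the myogenic factors, 13 were tested, and 7 rose and 1 fell in siCtrl (median 0.433). With siSMYD3#1 4 rose and 1 fell over time, and with siSMYD3#2 3 rose and 2 fell. The shares of all genes called over time were 29.4% in siCtrl, 25.4% with siSMYD3#1 and 19% with siSMYD3#2. In siCtrl, Heyl, a Notch target repressor, rose by 2.17 ± 0.39 and Zeb1, an E-box repressor, by 1.47 ± 0.14. Hey1, another Notch target, was the 1 that fell (-0.69 ± 0.15), and it was also the 1 member of this list lower than siCtrl with siSMYD3#1 (-1.56 ± 0.16) and with siSMYD3#2 (-0.78 ± 0.16) at 24 h. Mdfi, the I-mfa gene that retains MyoD family proteins in the cytoplasm, reached at most 0.352 CPM and was not tested.

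Of 30 BMP signalling genes listed, 23 were tested, and 6 fell and 1 rose in siCtrl, with a median log2 difference of 0. Of all 15820 genes, 2346 fell and 2309 rose, 29.4% being called. With siSMYD3#1 4 of the list fell and 3 rose over time, where 25.4% of all genes were called. With siSMYD3#2 5 fell and 0 rose, where 19% of all genes were called. The list was thus called at rates near those of all genes. In siCtrl, Bambi, a decoy receptor, fell by 2.07 ± 0.4 and Grem1, a BMP antagonist, by 1.99 ± 0.18. Bambi was low throughout, at 0.957 to 1.43 CPM at 0 h and 0.175 to 0.422 CPM at 24 h in siCtrl. The other 4 that fell were the inhibitory Smad6 (-1 ± 0.2) and Smad7 (-1.1 ± 0.14), the BMP effector Smad9 (-1.37 ± 0.29) and the BMP target Atoh8 (-1.19 ± 0.22), and Chrd, the antagonist chordin, rose by 1.94 ± 0.26. Smad6, Smad7, Smad9 and Atoh8 were named after their values were seen. No gene of the list was called against siCtrl with either siRNA at 24 h. Fst, the activin and BMP antagonist follistatin, was 4.43 ± 0.4 above vector in SMYD3 CL5 at 24 h (adjusted p = 0.00242).

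Of the targets and markers of differentiation, all 10 rose in siCtrl (median 6.36), with Myh3 at 9.57 ± 0.53 and Ckm at 9.53 ± 0.4. In siCtrl at 0 h, Myh3 was at 0.147 to 0.343 CPM and Ckm at 0 to 0.0732 CPM, so these folds rest on few 0 h counts. At 24 h, 8 of 10 were lower than siCtrl with each siRNA, Myh3 by -4 ± 0.36 and -2.41 ± 0.34 and Ckm by -3.8 ± 0.25 and -2.26 ± 0.23. Of the 5 tested inhibitors, Msc with siSMYD3#1 was the 1 called in the main edgeR fit of these contrasts, and it was lower. Of all genes, 5.85% were called there with siSMYD3#1 and 3.7% with siSMYD3#2. With siSMYD3#2, DESeq2 called 1 of the 5 members. The extraction by time term, added after the data were seen, called Id2 and Id3 as lower with siSMYD3#2.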

How the data were processed

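The authors extracted total RNA, prepared stranded TruSeq libraries from its poly-A fraction and sequenced them as paired ends. Per the labels, reads were checked with FastQC 0.11.5, aligned to GRCm38 with HISAT2 2.1.0 and counted with featureCounts (Subread 1.6.3), and raw counts per gene were deposited. The strand setting and annotation release of the counting are not given in the sources used here. Groups came from the labels, and extraction method and replicate numbers from the study's library list. The members and gene lists were chosen with earlier results of these data known.

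Counts were tested with edgeR 4.0.16 in R 4.3.3 (filterByExpr, TMM, robust quasi-likelihood test, Benjamini-Hochberg adjustment over all genes, threshold 0.01). The siRNA fit held 18 libraries in 6 groups with extraction method, and the overexpression fit 8 libraries in 4 groups. The scripts were tested on simulated data. SE is the log2 fold change divided by the square root of F. Alternatives included DESeq2 1.42.0. Same-numbered siRNA libraries deviated together (21 correlations of 0.366 to 0.851). Correlations were -0.041 to 0.177 within NucleoSpin libraries and -0.097 to 0.483 in the overexpression libraries. With 2 libraries per group the deviations mirror each other, so both replicate numbers give the same correlation. The siRNA libraries numbered alike also shared extraction method, which coincides with cell passage, and a cause was not tested. Named list genes were the E proteins, Myod1, Myf5, Myog, Mdfi and the 2 called genes with the largest change per list in 4 main comparisons, and similar genes were the 3 with the highest r of log2(CPM + 0.5), of which 1 is not reported here.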

Additional observations from a re-analysis of the deposited data

Results flagged for a closer look

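The 24 h effect differed between the extraction methods for 4 members of the siRNA libraries, by an interaction term tested in edgeR over 15820 genes. Expressed as the TRIzol effect minus the NucleoSpin effect on the log2 scale, the difference was 1.69 for Id3 (adjusted p = 7.64e-05) and -0.91 for Twist2 (adjusted p = 0.000206). It was 0.58 for Id2 (adjusted p = 0.00583) and -0.85 for Id1 (adjusted p = 0.00663). Each TRIzol condition of this experiment had 1 library, and extraction method coincides with cell passage.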

How the results depend on the processing

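Counts of called members, out of 5, moved under these settings. Without the extraction covariate they were 2 instead of 5 for siCtrl over time, 1 instead of 3 for siSMYD3#1 and for siSMYD3#2 over time, and 0 instead of 1 for siSMYD3#1 against siCtrl and against siSMYD3#2 at 24 h. DESeq2 called 1 instead of 0 for siSMYD3#1 against siCtrl at 0 h, siSMYD3#2 against siCtrl at 24 h and SMYD3 CL5 against vector at 24 h, and 3 instead of 0 over time in vector and in SMYD3 CL5. It also added Twist2 over time with siSMYD3#1 and with siSMYD3#2 (4 instead of 3) and between extraction methods (5 instead of 4, with 8453 genes called). Without the low-count filter, the first 5 comparisons listed for DESeq2 gave 1, 2, 1, 4 and 3, in that order. That setting also gave 2 for siSMYD3#1 against siSMYD3#2 and 1 for the siSMYD3#2 difference of time effects. NucleoSpin libraries alone gave 1 for siSMYD3#1 against siCtrl at 0 h and 2 for siSMYD3#1 against siSMYD3#2. All 26 libraries in 1 fit gave 0 for siSMYD3#1 against siSMYD3#2, 2 over time in vector and in SMYD3 CL5, and 1 for SMYD3 CL5 against vector at 24 h. The replicate block gave 0 for siSMYD3#1 against siSMYD3#2 and changed no other call of a member. An adjusted p threshold of 0.05 gave 1 for siSMYD3#1 against siCtrl at 0 h, siSMYD3#2 against siCtrl at 24 h and SMYD3 CL5 against vector at 24 h. The extraction by time term, chosen after seeing the data, gave 2 for siSMYD3#1 against siCtrl at 0 h, siSMYD3#2 against siCtrl at 24 h and siSMYD3#1 against siSMYD3#2. The causes were not tested.

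Leaving out 1 library gave 0 to 1 for siSMYD3#1 against siCtrl at 0 h, siSMYD3#2 against siCtrl at 24 h, siSMYD3#1 against siSMYD3#2, vector over time and SMYD3 CL5 against vector at 24 h. It gave 0 to 3 for SMYD3 CL5 over time and 2 to 4 for the difference between extraction methods. The 3 in SMYD3 CL5 (Id1, Id3 and Twist2, log2 -2.73, -2.24 and -1.68) arose without its 0 h replicate 1. The vector count of 1 was Id1 without SMYD3 CL5 0 h replicate 2 (-2.48). Msc with siSMYD3#1 at 0 h passed without the siCtrl 0 h TRIzol library (-1.38, edgeR adjusted p = 0.00202). Twist2 over time passed in 4 of 18 fits with siSMYD3#1 and in 7 with siSMYD3#2. No called value changed sign under any setting run.

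Genes called varied more, mostly downwards without the extraction covariate, from 4655 to 1676 for siCtrl, 4016 to 1053 for siSMYD3#1 and 3004 to 583 for siSMYD3#2 over time. Against siCtrl it left 15 of 226 (siSMYD3#1) and 5 of 84 (siSMYD3#2) at 0 h, and 102 of 926 and 18 of 586 at 24 h, as numbers and not shared genes. The highest counts in these comparisons were 527, 208, 1772 and 1275, from fits without the low-count filter or with NucleoSpin libraries alone, and siSMYD3#1 against siSMYD3#2 ranged from 25 to 1486 around 532. The differences of time effects reached 277 and 230 from 34 and 3 without the filter. In the overexpression libraries the 0 over time became 203 and 216 without the filter, and 191 and 172 for SMYD3 CL5 against vector became 1995 and 1334 with all 26 libraries in 1 fit. Msc at 2 to 34 counts in TRIzol libraries and 2 libraries per overexpression group limit the precision.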
